A study of Homo sapiens with 9 samples.

Results

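This account describes 5 genes of the MondoA glucose-sensing pathway in K562, a human erythroleukaemia cell line. They are TXNIP and ARRDC4, which are targets of the pathway, MLXIP and MLX, which encode its transcription factor pair, and ARRDC3, a relative of ARRDC4. The genes were chosen by name as pathway members, with earlier results of these data known, and each has 1 row among the 58347 gene IDs of the count table. All 5 passed the filter on low counts, as did 23675 genes in all. Every library came from cells of the K562-FIRE line, which stably carries dCas9, an MS2-Fkbp fusion and an SS18-Frb fusion, each driven by an EF1a promoter. Rapamycin bridges Fkbp and Frb and so can bring SS18, a subunit of the BAF chromatin remodelling complex, to a guide RNA's site. The first sgRNA was directed at the promoter of HBG1 and the other had no target (non-targeting), and cells were kept in 10 nM rapamycin or in DMSO for 24 h. With the HBG1 sgRNA there were 3 DMSO and 3 rapamycin libraries, and with the non-targeting sgRNA 1 DMSO library (replicate 2) and 2 rapamycin libraries (replicates 1 and 2). The DMSO libraries, from cells treated with DMSO alone, are the controls for each guide. The labels do not say whether replicates were separate cultures, so p-values measure the spread between these libraries only.

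MondoA, encoded by MLXIP, and its partner MLX bind DNA together as a pair of basic helix-loop-helix leucine zipper proteins. When glucose enters a cell and is phosphorylated, glucose 6-phosphate sends the pair into the nucleus, where it raises TXNIP and ARRDC4. Both targets encode alpha-arrestins, adaptor proteins that lower glucose uptake by drawing glucose transporters from the cell surface, and TXNIP also binds thioredoxin. mTOR, the kinase that rapamycin inhibits in complex 1, is known to bind MondoA and to hold it away from MLX. Rapamycin is thus known both as the bridging agent of the fusions and as an mTOR inhibitor, and mTOR activity was not measured here.

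The DNA just before the start of the 2 target genes is shown to look for the carbohydrate response element. This element, which MondoA and MLX are known to bind, is a pair of E-box-like parts set 5 bases apart. Sequences are from RefSeq on GRCh38.p14, read 5′ to 3′ on the strand of the gene. Capitals mark matches, on either strand, to the E-box CACGTG, to the response element written as CACGNG, any 5 bases and CACGNG again (N is any base), to the CCAAT box CCAAT and to the FOXO site GTAAACA.
TXNIP (chr1:145996600-145996729, minus strand, 150 to 21 bases before the start): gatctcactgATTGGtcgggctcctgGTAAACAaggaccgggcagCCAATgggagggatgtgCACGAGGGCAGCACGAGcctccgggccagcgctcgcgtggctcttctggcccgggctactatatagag
ARRDC4 (chr15:97960473-97960662, plus strand, 230 to 41 bases before the start): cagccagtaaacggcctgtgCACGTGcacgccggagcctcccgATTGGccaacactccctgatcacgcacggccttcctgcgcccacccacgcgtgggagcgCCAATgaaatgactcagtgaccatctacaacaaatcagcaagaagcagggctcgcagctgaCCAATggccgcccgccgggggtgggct

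TXNIP has 2 RefSeq windows, and the second, not shown, holds no match to any of these motifs. The first window holds the response element as CACGAGGGCAGCACGAG, 88 to 72 bases before the start. This element lies between a CCAAT box 105 to 101 bases before the start and the start itself. A FOXO site is further upstream, 124 to 118 bases before the start. Of 34943 distinct promoter windows of 300 bases, 20 (0.0572%) hold this form of the response element. ARRDC4 has an E-box 210 to 205 bases before the start and 3 CCAAT boxes, and no match to the response element as written here. An E-box is in 7.23% of windows, a CCAAT box in 34.6% and the FOXO site in 3.42%. Among the other genes, MLX has an E-box 50 to 45 bases before its start, and the second of the RefSeq windows of ARRDC3 has a FOXO site. MLXIP, MLX and the first window of ARRDC3 each hold a CCAAT box as well, so all 5 genes have one. These matches are of letters only and no binding was measured here.

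The libraries held 19797409 to 31619671 counts, and TMM factors, which scale the libraries to each other, ran from 0.977 to 1.02. Levels are given as CPM, the count scaled to a common library size by TMM. HBG1, the guide's target, was at 137 to 436 CPM with the HBG1 sgRNA under DMSO, at 1533 to 2448 CPM with it under rapamycin, and at 8233 to 8944 CPM with the non-targeting sgRNA. All 10 erythroid markers listed for K562 had a mean of at least 1 CPM, with a summed level of 3998 to 13375 CPM that includes HBG1. Of markers of other cell types, 0 of 3 endothelial, 1 of 3 T cell (CD3D), 1 of 3 monocyte (LYZ) and 2 of 3 fibroblast genes (COL1A1 and COL1A2) reached that level. The highest summed level of any of these lists in a library was 29.6 CPM, for the monocyte list under rapamycin with the HBG1 sgRNA. In RNA from whole cultures, a change in level per cell and a change in the share of cells with the RNA cannot be told apart.

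TXNIP was the most abundant of the 5 genes and rose by 1.32-fold under rapamycin with the HBG1 sgRNA. TXNIP (ENSG00000265972) lies on chromosome 1 at 145992435 to 145996600, on the minus strand (GRCh38, GENCODE 29). With the HBG1 sgRNA it stood at 310, 302 and 299 CPM in DMSO replicates 1, 2 and 3, and at 403, 401 and 401 CPM in the rapamycin replicates. In the non-targeting libraries it was at 310 CPM under DMSO and at 411 and 412 CPM under rapamycin. All 5 rapamycin libraries lay above all 4 DMSO libraries, as did those of 6.38% of all tested genes. For TXNIP the gap between the treatments was far wider than the spread within either. With the HBG1 sgRNA the mean rose from 304 ± 5.60 to 402 ± 1.05 CPM (SD, n = 3 each). The log2 fold change was 0.40 (SE 0.06, 95% interval 0.27 to 0.54), with an adjusted p of 1.43e-03 (edgeR quasi-likelihood test, Benjamini-Hochberg adjustment over all tested genes). In that comparison 6.8% of the tested genes passed at an adjusted p under 0.05, 2.75% as higher and 4.05% as lower. By replicate pair, the log2 ratios of TXNIP were 0.38, 0.41 and 0.42. Its counts, 6084 to 12359 per library, carry a counting error of 0.900% to 1.28%, so the agreement of the rapamycin libraries to within 0.261% (SD as a percentage of the mean) is closer than counting alone would give on average.

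ARRDC4 rose by 1.76-fold with the HBG1 sgRNA. ARRDC4 (ENSG00000140450) is on chromosome 15 at 97960698 to 97973838, on the plus strand, and encodes an alpha-arrestin that, like TXNIP, lowers glucose uptake. With the HBG1 sgRNA it stood at 46.7, 55.9 and 47.3 CPM in DMSO replicates 1, 2 and 3, and at 83.6, 102 and 79.1 CPM under rapamycin. The non-targeting libraries had it at 50.7 CPM under DMSO and at 101 and 96.8 CPM under rapamycin. Again every rapamycin library was above every DMSO library, and replicate 2 was the highest of each HBG1 sgRNA group. Means with the HBG1 sgRNA were 49.98 ± 5.17 and 88.1 ± 11.96 CPM (SD, n = 3 each), a wider spread than that of TXNIP. This gave a log2 fold change of 0.82 (SE 0.10, 95% interval 0.60 to 1.03, edgeR adjusted p 2.85e-04). The pairs gave log2 ratios of 0.84, 0.86 and 0.74. The 95% intervals of ARRDC4 and TXNIP do not overlap, although the difference between the 2 genes was not itself tested. Among the 650 genes called higher, ARRDC4 ranked 154 by log2 fold change and TXNIP 497, around a median of 0.55.

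**Figure D1:**
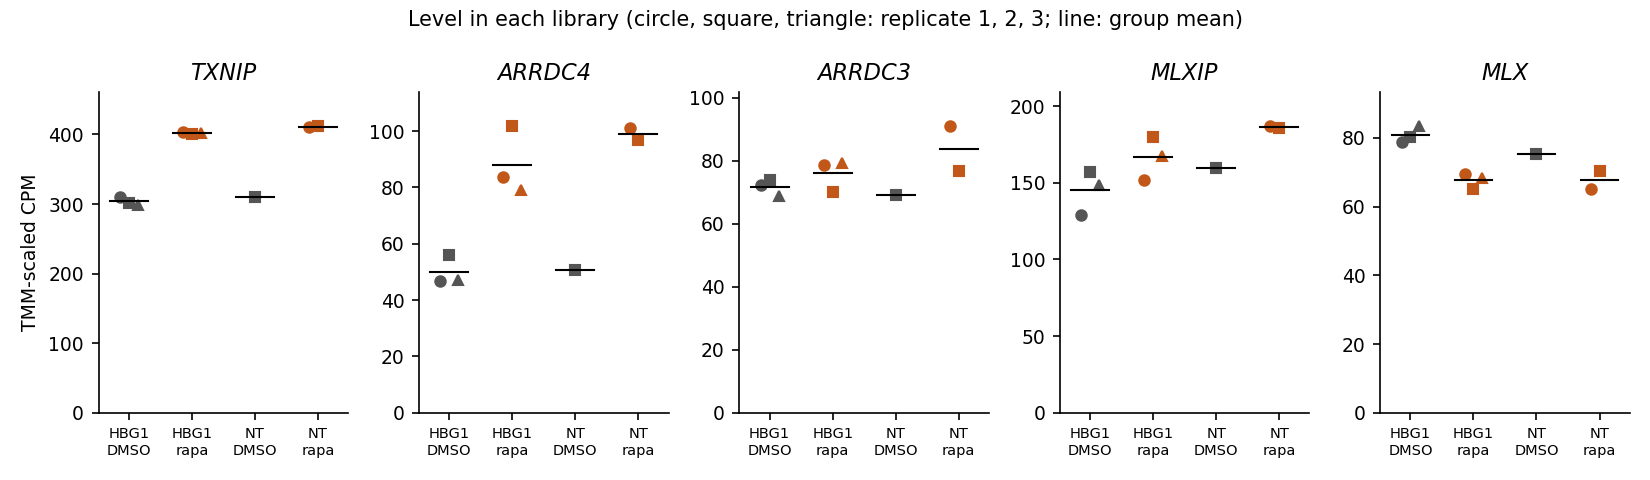
TMM-scaled CPM of TXNIP, ARRDC4, ARRDC3, MLXIP and MLX in each of the 9 libraries, by guide (HBG1 or non-targeting, NT) and treatment, with symbols for replicate numbers and a line at each group's mean. TXNIP sits at 299 to 310 CPM under DMSO and 401 to 412 CPM under rapamycin, ARRDC4 also separates by treatment, and ARRDC3 does not.

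ARRDC3 did not pass the test in spite of its kinship with ARRDC4. ARRDC3 encodes an alpha-arrestin known for its work on adrenergic receptors and integrins. The gene (ENSG00000113369) lies on chromosome 5 at 91368724 to 91383359, on the minus strand. With the HBG1 sgRNA it was at 72.4, 74.0 and 68.7 CPM under DMSO and at 78.7, 70.0 and 79.4 CPM under rapamycin. Non-targeting libraries were at 69.0 CPM under DMSO and at 90.9 and 76.8 CPM under rapamycin. The groups overlap, and the highest library is non-targeting rapamycin replicate 1. The log2 fold change with the HBG1 sgRNA was 0.08 (SE 0.09, 95% interval -0.10 to 0.27, edgeR adjusted p 0.632), so a rise as large as that of ARRDC4 lies outside the interval. In replicate pair 2 the log2 ratio was -0.08, and in pairs 1 and 3 it was 0.12 and 0.21. The start of ARRDC3 overlaps ARRDC3-AS1, a lincRNA gene on the plus strand with 689 counts over all 9 libraries, and without a stated strand setting reads of the overlap cannot be assigned with certainty.

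The 2 genes of the transcription factor pair had log2 fold changes of opposite sign, and neither passed in the edgeR fit over all 9 libraries without a replicate block. MLXIP (ENSG00000175727, chromosome 12, 122078722 to 122147347, plus strand) stood at 129, 157 and 149 CPM with the HBG1 sgRNA under DMSO and at 152, 180 and 168 CPM under rapamycin. Its non-targeting libraries were at 160 CPM under DMSO and at 187 and 186 CPM under rapamycin. Each rapamycin library that has a DMSO library of the same guide and number was above it. The groups overlap, because replicate 1 was the lowest of both HBG1 sgRNA groups. Its log2 fold change was 0.20 (SE 0.09, 95% interval 0.02 to 0.38, edgeR adjusted p 0.190). With replicate number as a block, in a fit of the 6 HBG1 sgRNA libraries, 17.1% of 20179 tested genes passed, 7.43% as higher and 9.62% as lower. In that fit MLXIP passed as higher (0.21, edgeR adjusted p 0.0173), and its pairs gave log2 ratios of 0.23, 0.19 and 0.17.

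MLX (ENSG00000108788, chromosome 17, 42567068 to 42573239, plus strand) stood at 78.9, 80.2 and 83.4 CPM with the HBG1 sgRNA under DMSO and at 69.6, 65.1 and 68.4 CPM under rapamycin. Cells with the non-targeting sgRNA had 75.3 CPM under DMSO and 65.0 and 70.4 CPM under rapamycin. All 5 rapamycin libraries were below all 4 DMSO libraries, which held in that direction for 8.29% of tested genes. The log2 fold change with the HBG1 sgRNA was -0.25 (SE 0.08, 95% interval -0.41 to -0.09, edgeR adjusted p 0.0540), just short of the threshold. With replicate number as a block MLX passed as lower (-0.25, edgeR adjusted p 0.0129), with pair log2 ratios of -0.18, -0.30 and -0.29. It also passed with DESeq2 (adjusted p 0.0231) and with limma voom (0.0473). The end of MLX overlaps PSMC3IP, a protein-coding gene on the minus strand with 8256 counts over the 9 libraries. Without a stated strand setting, reads of that overlap cannot be assigned with certainty either. This limit applies to the MLX level and to any ratio made from it. The MLXIP to MLX ratio of CPM within a library, which needs no scaling between libraries, was 1.64 to 1.96 with the HBG1 sgRNA under DMSO and 2.18 to 2.77 under rapamycin. With the non-targeting sgRNA it was 2.12 under DMSO and 2.64 and 2.87 under rapamycin, so every rapamycin library had the higher ratio.

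**Figure D2:**
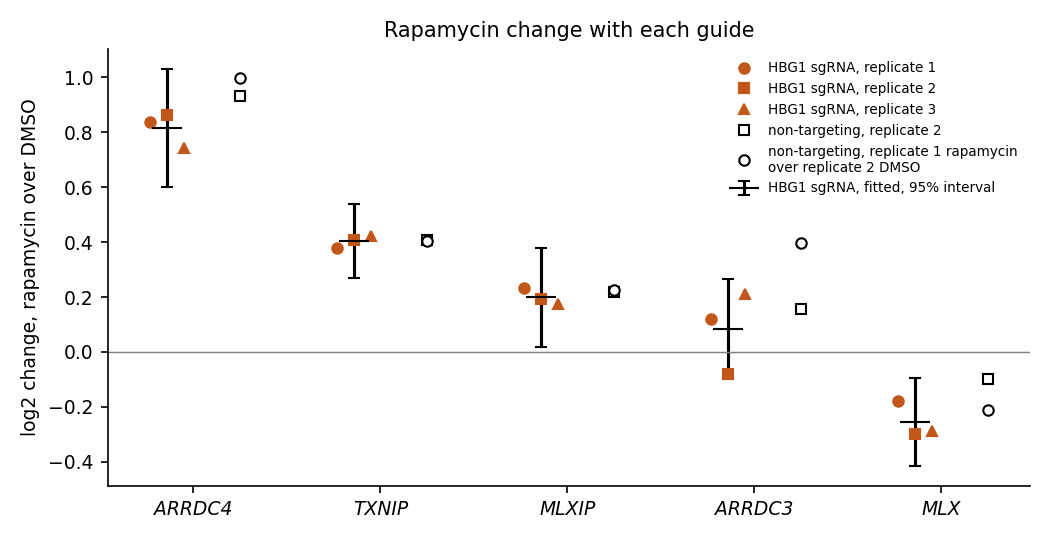
Log2 change of each of the 5 genes under rapamycin over DMSO. Black bars give the fitted value and 95% interval with the HBG1 sgRNA, filled symbols the 3 HBG1 sgRNA replicate pairs, and open symbols the 2 non-targeting rapamycin libraries over the single non-targeting DMSO library. ARRDC4, TXNIP and MLXIP lie above 0 in every pair and MLX below it, while ARRDC3 crosses 0 in replicate pair 2.

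Levels of different genes were compared as CPM per kb of annotated exon. With the HBG1 sgRNA under DMSO the order was TXNIP (83.8 ± 1.54), MLX (19.0 ± 0.54), ARRDC3 (14.5 ± 0.55), ARRDC4 (12.3 ± 1.27) and MLXIP (10.4 ± 1.04 CPM per kb, SD, n = 3 each). The ranges of TXNIP, MLX and ARRDC3 do not meet, with 82.6 to 85.5, 18.5 to 19.6 and 13.9 to 14.996. ARRDC4 at 11.5 to 13.7 and MLXIP at 9.29 to 11.3 were neighbours with a narrow gap, smaller than the SD of either gene. Under rapamycin ARRDC4 moved from the fourth place to the second, at 21.6 ± 2.94 CPM per kb (19.4 to 24.96). MLX at 15.9 ± 0.54 and ARRDC3 at 15.4 ± 1.06 CPM per kb then overlapped, and MLXIP stood last at 11.98 ± 1.02 (SD, n = 3 each). With the non-targeting sgRNA the order under DMSO was the same, from 85.6 for TXNIP to 11.5 CPM per kb for MLXIP, with ARRDC4 at 12.5. Under rapamycin ARRDC4 again came second, at 24.3 ± 0.77 CPM per kb (SD, n = 2). The exon length of MLXIP, 13905 bases, takes in all annotated transcripts, and a shorter form in use would place it higher.

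The 2 targets thus came nearer to each other under rapamycin. Per kb of exon, TXNIP stood at 7.45, 6.06 and 7.11 times the level of ARRDC4 in the HBG1 sgRNA DMSO libraries and at 5.42, 4.43 and 5.70 times in the rapamycin libraries. With the non-targeting sgRNA the ratio was 6.87 under DMSO and 4.56 and 4.78 under rapamycin. No rapamycin library reached the lowest DMSO value.

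**Figure D3:**
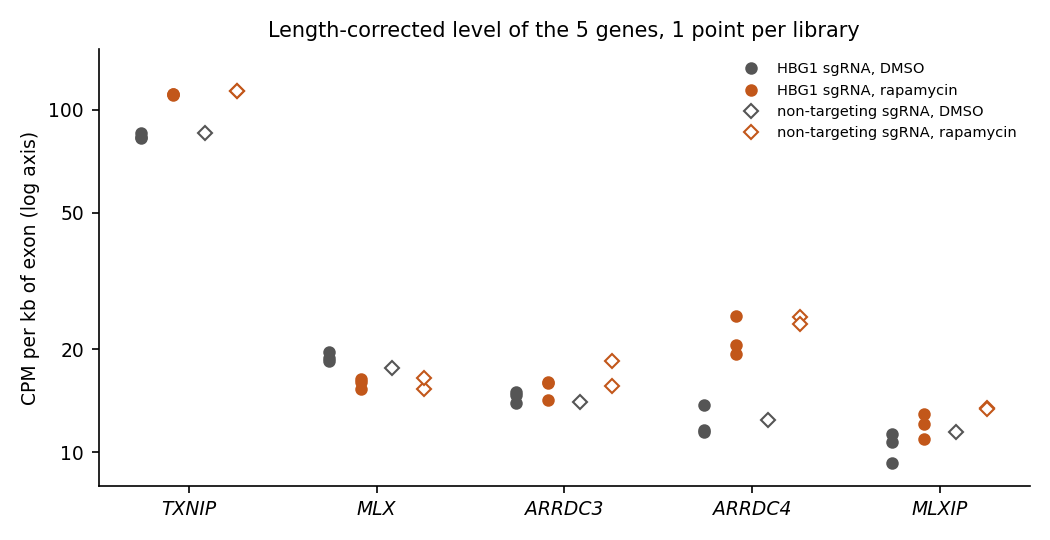
Length-corrected level, in CPM per kb of exon on a log axis, of TXNIP, MLX, ARRDC3, ARRDC4 and MLXIP, with 1 point per library and filled circles for the HBG1 sgRNA. ARRDC4 passes from 11.5 to 13.7 CPM per kb under DMSO to 19.4 to 24.96 under rapamycin with the HBG1 sgRNA, above MLX and ARRDC3.

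The guide was not seen to alter any of the 5 genes. Rapamycin over the lone DMSO library of the non-targeting sgRNA gave log2 fold changes of 0.41 for TXNIP, 0.96 for ARRDC4, 0.22 for MLXIP, -0.15 for MLX and 0.28 for ARRDC3, without a test. These share no library with the HBG1 sgRNA values, and each has the same sign. Between guides under rapamycin 0 of 5 genes passed edgeR's test, and 0 had an unadjusted p under 0.05, also with DESeq2 and limma voom. In edgeR's test 0.0296% of all genes passed, 0.0169% as higher and 0.0127% as lower, and 6.27% had an unadjusted p under 0.05. The log2 differences, HBG1 over non-targeting sgRNA, were -0.03 for TXNIP (95% interval -0.18 to 0.12), -0.17 for ARRDC4 (-0.40 to 0.07), -0.16 for MLXIP (-0.36 to 0.04), 0.00022 for MLX (-0.18 to 0.18) and -0.14 for ARRDC3 (-0.34 to 0.06). Single libraries moved these differences. ARRDC4 went from -0.29 (SE 0.10) without HBG1 sgRNA rapamycin replicate 2 to -0.10 (SE 0.12) without replicate 3. MLXIP went from -0.23 (SE 0.10) without HBG1 sgRNA rapamycin replicate 2 to -0.10 (SE 0.09) without replicate 1. ARRDC3 was at -0.26 without non-targeting rapamycin replicate 2 and at -0.01 without replicate 1. The counts of unadjusted p above are of fits to all the libraries and do not cover these fits.

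The interaction, the rapamycin change with the HBG1 sgRNA minus that with the non-targeting sgRNA, was -0.003 for TXNIP (95% interval -0.25 to 0.24) and -0.15 for ARRDC4 (-0.54 to 0.24). It was -0.02 for MLXIP (-0.35 to 0.30), -0.10 for MLX (-0.39 to 0.19) and -0.20 for ARRDC3 (-0.53 to 0.13). Again 0 of 5 genes passed edgeR's test and 0 had an unadjusted p under 0.05, with the same counts by DESeq2 and limma voom, beside 0.00422% of all genes that passed (all of them higher) and 2.86% with an unadjusted p under 0.05. For TXNIP and ARRDC4 the interval leaves out a difference as large as the rapamycin change itself, and for MLXIP, MLX and ARRDC3 it does not. The lone DMSO library of the non-targeting sgRNA was assumed to vary like the other groups.

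Genes reported as targets of MondoA or of its relative ChREBP changed in both directions with the HBG1 sgRNA. The list of 10, all tested, includes TXNIP and ARRDC4. Of the 10, 3 were called higher (ARRDC4, TXNIP and KLF10) and 3 lower (HK2, FASN and ACACA). Over all tested genes 2.75% were called higher and 4.05% lower. Apart from TXNIP and ARRDC4 themselves, only KLF10 was called higher. The median log2 fold change of the 10 was -0.14, against 0.0196 over all tested genes. KLF10, a transcription factor induced by TGF-beta and by glucose, rose from 33.6 ± 1.80 to 47.3 ± 5.31 CPM (SD, n = 3 each), a log2 fold change of 0.50 (SE 0.10, edgeR adjusted p 0.00916). In the non-targeting libraries it was at 32.8 CPM under DMSO and at 56.6 and 46.7 CPM under rapamycin. The KLF10 call was lost without HBG1 sgRNA DMSO replicate 3 (adjusted p 0.0505) or rapamycin replicate 3 (0.0644).

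HK2, the hexokinase that phosphorylates incoming glucose in many tumour lines, had the largest fall among the called genes of this list. It went from 62.7, 74.2 and 69.5 CPM to 26.4, 33.4 and 35.0 CPM with the HBG1 sgRNA, and from 69.0 to 34.7 and 35.0 CPM with the non-targeting sgRNA. HK2's log2 fold change was -1.12 (SE 0.11, edgeR adjusted p 5.47e-05), larger in size than the change of ARRDC4 and of the opposite sign. FASN and ACACA, the enzymes of fatty acid synthesis, fell by 0.38 and 0.39 on the log2 scale (edgeR adjusted p 0.0182 and 0.0176). Both calls were lost without HBG1 sgRNA DMSO replicate 2 (0.107 and 0.108), DMSO replicate 3 (0.0637 and 0.0782) or rapamycin replicate 3 (0.0824 and 0.0924). The 4 genes not called were PFKFB3 (-0.21), PKLR (-0.08), G0S2 (0.60) and RGS16 (-1.54), with G0S2 at 2.66 to 11.5 CPM and RGS16 below 1 CPM in every library.

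**Figure D4:**
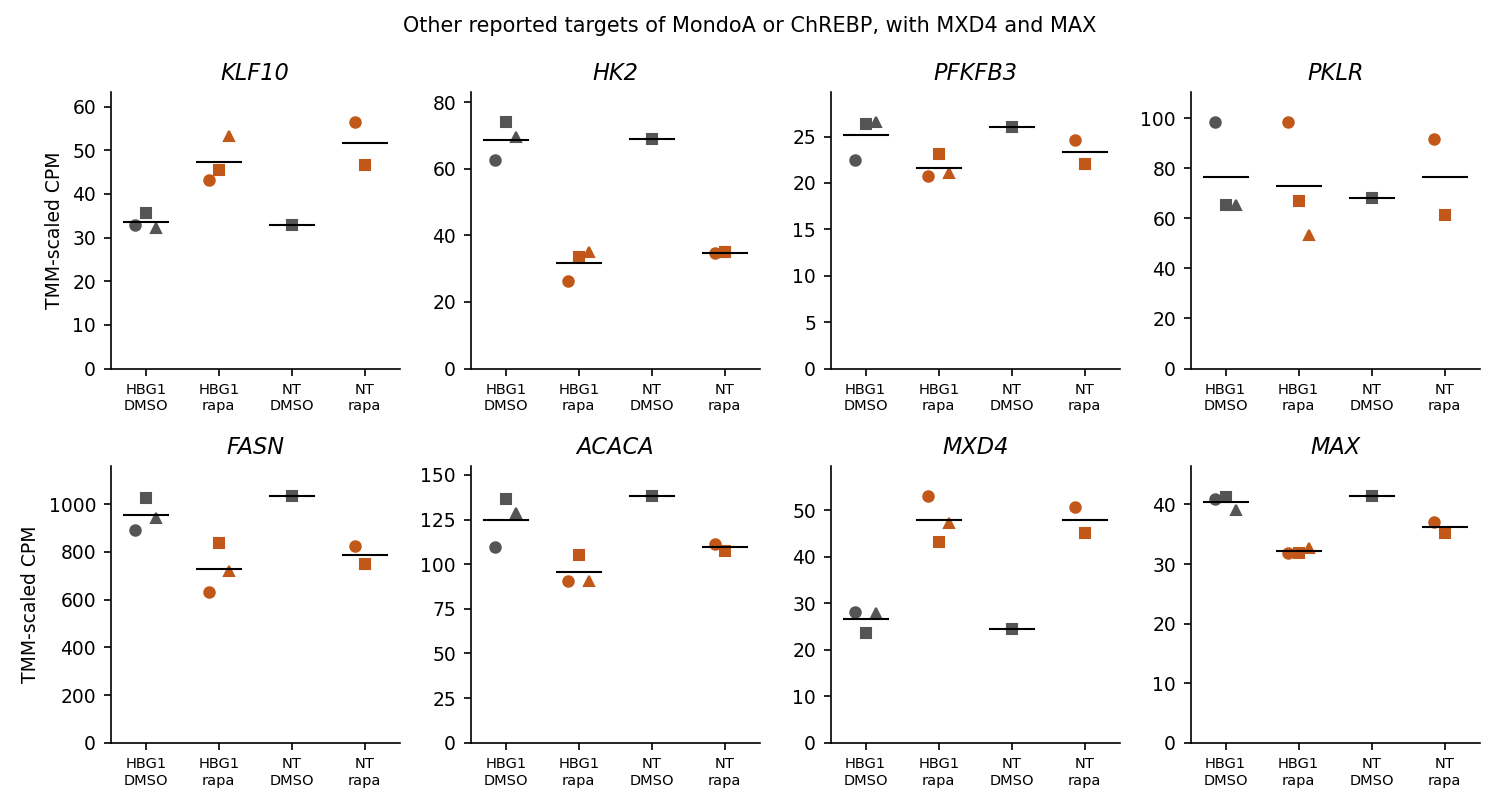
TMM-scaled CPM by library, guide and treatment for 6 other reported targets of MondoA or ChREBP and for the network factors MXD4 and MAX, with a line at each group's mean. HK2 lies at 62.7 to 74.2 CPM under DMSO and 26.4 to 35.0 CPM under rapamycin, while KLF10 and MXD4 are higher under rapamycin in every library.

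MLX and MAX each pair with several repressors and activators that share E-box sites. Of 13 such network factors, 12 were tested, of which 1 was called higher and 1 lower. Over all tested genes 2.75% were called higher and 4.05% lower. The median log2 fold change of the 12 factors was 0.12. MXD4, a repressor that pairs with MAX or MLX, rose from 28.2, 23.5 and 27.8 CPM to 53.1, 43.2 and 47.3 CPM with the HBG1 sgRNA. It was at 24.5 CPM under DMSO and at 50.7 and 45.1 CPM under rapamycin with the non-targeting sgRNA. The log2 fold change of MXD4, 0.85 (SE 0.11, edgeR adjusted p 2.85e-04), was close to that of ARRDC4. MAX itself fell from 40.4 ± 1.15 to 32.1 ± 0.487 CPM (SD, n = 3 each), a log2 fold change of -0.33 (SE 0.09, edgeR adjusted p 0.0271). The MAX call was lost without HBG1 sgRNA DMSO replicate 1, 2 or 3 (0.0599, 0.111 and 0.0651) or rapamycin replicate 2 or 3 (0.0635 and 0.0797). With the replicate block, which called 17.1% of all genes, 3 factors passed as higher (MXD4, MLXIP and MYC) and 3 as lower (MAX, MLX and MXD3). MLXIPL, which encodes ChREBP, was at 6.42 to 12.3 CPM over the 9 libraries and was not called (0.35, edgeR adjusted p 0.345).

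The arrestins, a list that includes TXNIP, ARRDC4 and ARRDC3, had log2 fold changes above 0 in 7 of 7 tested cases with the HBG1 sgRNA. Their median was 0.28, and 3 of them passed as higher. With the non-targeting sgRNA 6 of the 7 were above 0 and 1 below, at a median of 0.11, without a test. Over all tested genes 47.7% of log2 fold changes with the HBG1 sgRNA were below 0 and 2.75% of genes were called higher. Beside TXNIP and ARRDC4 the arrestin gene that passed was ARRDC1, an adaptor known for its part in the budding of vesicles from the cell surface. ARRDC1 went from 24.0, 23.6 and 20.8 CPM to 32.7, 29.5 and 28.0 CPM with the HBG1 sgRNA, a log2 fold change of 0.40 (SE 0.10, edgeR adjusted p 0.0310). With the non-targeting sgRNA it was at 24.2 CPM under DMSO and at 21.8 and 21.6 CPM under rapamycin, below the DMSO library. Its interaction of 0.55 had an unadjusted p of 0.00973 and an adjusted p of 1.00 (edgeR), so the difference between guides did not pass. The call was lost without HBG1 sgRNA DMSO replicate 2 or 3 (0.0827 and 0.136), or rapamycin replicate 1, 2 or 3 (0.0852, 0.0619 and 0.0555). In the additive model over both guides the ARRDC1 value fell to 0.23 (edgeR adjusted p 0.169). ARRDC2 (0.12) and the beta-arrestin genes ARRB1 (0.05) and ARRB2 (0.28) were not called. Leaving out single libraries gave -0.03 to 0.10 for ARRB1.

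Genes for glucose entry and for glucose 6-phosphate, the signal that MondoA reads, included 3 called lower and 0 called higher in the edgeR fit over all 9 libraries. Of 18 listed genes 14 were tested, with 0 higher and 3 lower at a median of -0.12. Over all tested genes 2.75% were called higher and 4.05% lower. In edgeR's test 8 of the 14 had an unadjusted p under 0.05, as had 20.8% of all tested genes. SLC2A3, a glucose transporter gene, fell from 105 ± 22.6 to 69.0 ± 15.6 CPM (SD, n = 3 each; log2 fold change -0.60, SE 0.15, edgeR adjusted p 0.0253). GPI, the isomerase that turns glucose 6-phosphate into fructose 6-phosphate, fell from 290 ± 3.72 to 238 ± 2.85 CPM (-0.28, SE 0.06, edgeR adjusted p 0.0151). HK2 was the remaining gene, with the values above. Both SLC2A3 and GPI lost their calls without HBG1 sgRNA DMSO replicate 2 (0.150 and 0.0744), DMSO replicate 3 (0.0782 and 0.0653) or rapamycin replicate 3 (0.0965 and 0.0719), and SLC2A3 also with DESeq2 (0.0717). SLC2A1, the main glucose transporter gene of red cell precursors, was at 254 to 274 CPM under DMSO and 281 to 313 CPM under rapamycin with the HBG1 sgRNA. With the replicate block, SLC2A1 (0.20, edgeR adjusted p 0.0183) and G6PC3 (0.27, 0.0283) passed as higher, and SLC2A1 also in the additive model (0.22, 0.0289). HK1, the most abundant hexokinase gene at a mean of 587 CPM, was not called (-0.09, edgeR adjusted p 0.485).

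Genes for the proteins that TXNIP and the arrestins bind come next. In the thioredoxin system 0 of 11 genes passed edgeR's test over all 9 libraries, with 4 at an unadjusted p under 0.05. Of all tested genes, 6.8% passed that test and 20.8% had an unadjusted p under 0.05. In the thioredoxin system 1 gene, PRDX1, was called by DESeq2 and by limma voom. PRDX1, a peroxiredoxin kept reduced by thioredoxin, went from 321 ± 23.6 to 261 ± 37.5 CPM (SD, n = 3 each; log2 fold change -0.30, edgeR adjusted p 0.0660). With the replicate block PRDX1 (0.00245), TXNRD1 (0.0200) and PRDX4 (0.0352) passed as lower. PRDX1 also passed in edgeR with no filter (0.00675) and without HBG1 sgRNA rapamycin replicate 1 (0.00419), and PRDX1, PRDX3 and PRDX4 passed in an additive model over both guides (0.0111, 0.0249 and 0.0281). TXN, the thioredoxin that TXNIP binds, had a log2 fold change of -0.02 (95% interval -0.25 to 0.21). Of the NEDD4 family ubiquitin ligases, which bind arrestins and mark them or their cargo for removal, 0 of 8 tested genes passed and 0 had an unadjusted p under 0.05 (edgeR, DESeq2 and limma voom alike). ITCH, the ligase known to act on TXNIP, was at 65.6 ± 2.49 and 62.1 ± 0.505 CPM, and WWP2 at 47.0 ± 0.607 and 51.0 ± 3.94 CPM (SD, n = 3 each). The AMPK subunit genes, whose kinase marks TXNIP protein for degradation, gave 0 of 5 by the same count and tools, with PRKAB1 at -0.01 and PRKAA1 at -0.12.

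**Figure D5:**
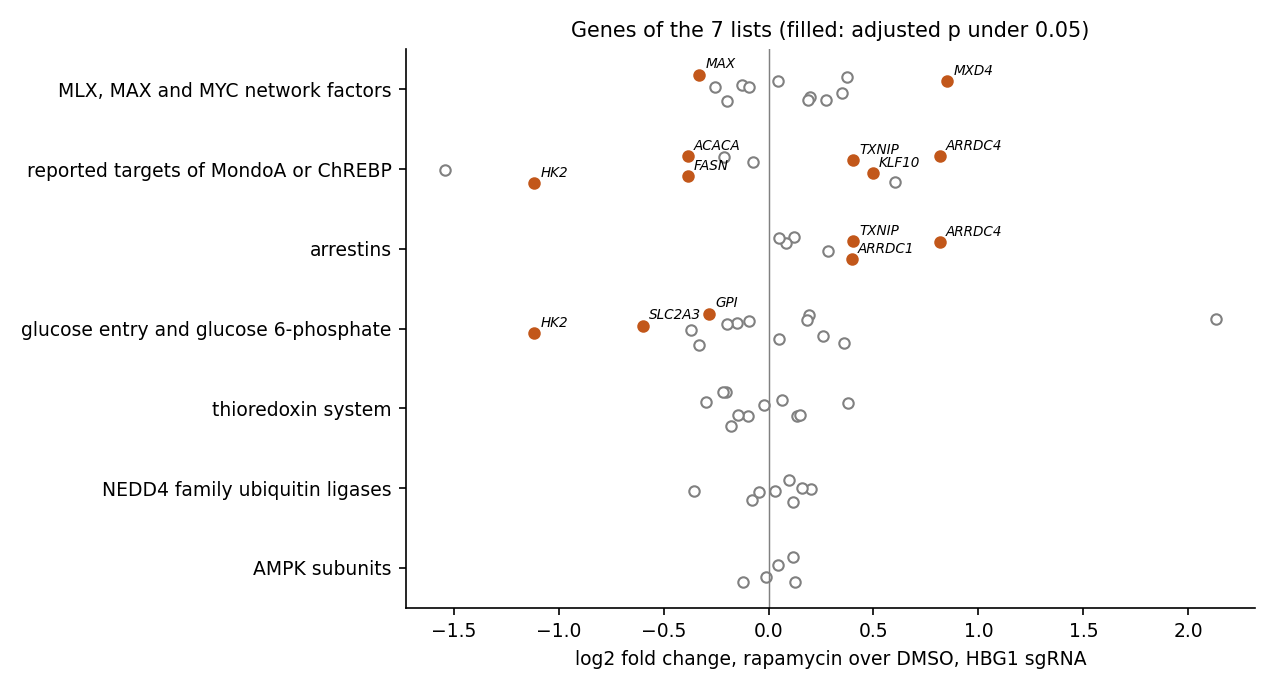
Log2 fold change under rapamycin over DMSO with the HBG1 sgRNA for the tested genes of 7 pathway lists, with 1 point per gene (vertical scatter within a list is only to separate points) and filled, named points for an adjusted p under 0.05. The reported targets spread from HK2 at -1.12 to ARRDC4 at 0.82 among the called genes, and no gene of the lower 3 lists was called.

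Across the 9 libraries, the genes whose pattern was most like that of TXNIP were sought among 15177 genes whose log2 CPM averaged 1 or more. The highest Pearson correlations of log2 CPM were with HDAC6 (0.998), STRADA (0.994), FBXO25 (0.994), ABTB1 (0.993) and BRD8 (0.990). HDAC6, a cytoplasmic deacetylase gene, went from 66.8 ± 0.803 to 97.7 ± 1.38 CPM with the HBG1 sgRNA (SD, n = 3 each). For ARRDC4 the nearest patterns were those of WNK4 (0.986), EEF2 (0.984), PPP1R14C (0.984), AL365181.3 (0.984) and WIPI2 (0.982). EEF2, the translation elongation factor gene, rose from 3637 ± 54.1 to 4584 ± 228 CPM (SD, n = 3 each), and WIPI2, an autophagy gene, from 82.0 ± 1.78 to 114 ± 7.33 CPM. TXNIP and ARRDC4 correlated with each other at 0.958, which placed ARRDC4 at rank 75 among the genes nearest to TXNIP. The 9 points fall into DMSO and rapamycin libraries, so each of these correlations mostly repeats a shared difference between treatments, and they are given as a description only.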

How the data were processed

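The authors deposited 1 table of raw read counts per Ensembl gene for 9 poly-T selected RNA libraries. The submitters' processing notes name STAR 2.7.3a, featureCounts and Subread 2.0.0, and the builds GRCh38 and hg38; annotation release, strand setting and treatment of multi-mapped reads are not given in the sources used here. Symbols, positions and exon lengths came from GENCODE 29, in which 99.47% of the IDs were found.

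Counts were filtered with filterByExpr by group (minimum count 10), scaled by TMM and fitted in edgeR 4.0.16 (R 4.3.3) with 1 mean per group over all 9 libraries. Intervals, calls and fits with a library left out take no account of replicate numbers, except where the replicate block is named. Calls are at a Benjamini-Hochberg adjusted p under 0.05 over 23675 genes. The SE is the size of the log2 fold change over the square root of F, and 95% intervals use the fit's t quantiles. DESeq2 1.42.0, limma 3.58.1 voom, other scalings and filters, a replicate block, an additive model and leaving out each library were alternatives. The script was tested on simulated data.

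Same-numbered HBG1 sgRNA libraries deviated together from their group means over 11498 genes (correlations 0.553, 0.278 and 0.231), above the limit of 0.1. Libraries of unlike number were not correlated across treatments. Since replicate 1 stood apart in both groups, the check cannot decide whether replicates 2 and 3 pair by number. Replicate pairs in this account follow the numbers of the labels. The rapamycin libraries of the 2 guides gave -0.07 and -0.07, and were not treated as pairs. The chi-square per gene between replicates of a group was 4.74 to 18.6, so none repeats another. With the HBG1 sgRNA it was 16.5 to 18.6 between replicate 1 and the others. Between replicates 2 and 3 it was 4.74 under DMSO and 7.91 under rapamycin.

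The genes and lists were chosen with earlier results of these data known. From each list, called genes were named (up to 6), or else the 2 most abundant. For pattern likeness, the 5 genes nearest to TXNIP and to ARRDC4 were named. Others (PFKFB3, PKLR, G0S2, RGS16, MXD3, MYC, MLXIPL, ARRDC2, ARRB1, ARRB2, SLC2A1, G6PC3, HK1, TXN, PRDX3, PRDX4) were named after their values were seen. Protein sequences were not used here. A further marker list is not reported here.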

Additional observations from a re-analysis of the deposited data

How the results depend on the processing

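TXNIP and ARRDC4 kept their rise and their calls under all 18 alternatives each, at log2 fold changes of 0.39 to 0.42 and 0.70 to 0.91, with adjusted p up to 0.0148 and 0.00342. ARRDC3 passed under none of its 18. MLX passed with a minimum count of 50 (-0.24), DESeq2 (-0.25), limma voom (-0.25), the replicate block (-0.25) and the additive model over both guides (-0.22), and MLXIP with the replicate block (0.21). Leaving out single libraries gave -0.27 to -0.23 for MLX and 0.12 to 0.26 for MLXIP, with neither called. Between guides and for the interaction, 0 of 165 alternatives for the 5 genes passed, the lowest adjusted p being 0.569.

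Over all genes, rapamycin against DMSO with the HBG1 sgRNA called 1609 genes, against 3441 with the replicate block, 3263 with the additive model and 664 to 1731 with single libraries left out. The lowest counts came without HBG1 sgRNA DMSO replicate 2 (664), rapamycin replicate 3 (693) and DMSO replicate 3 (749). The block changed no other call among the 5 genes, and none among the list genes beyond those given above. Between guides 7 genes passed, against 91 with no filter, 13 with DESeq2, 13 with the replicate block and 3 (without non-targeting rapamycin replicate 1) to 8 with single libraries left out. For the interaction 1 gene passed, against 0 with total counts alone, 8 with no filter, 0 with a minimum count of 50, 0 with DESeq2, 3 with limma voom, 3 with the replicate block, 5 with the block within each guide and 0 to 4 with single libraries left out, and without the non-targeting DMSO library it could not be fitted. In the 250 bases before the start alone, 6.32% of windows held an E-box, 32.04% a CCAAT box and 2.98% a FOXO site. The causes of these shifts were not tested. Groups of 1 to 3 libraries limit the precision, and a lone library in an arm was assumed to vary like the other groups.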
